A study of Mus musculus with 10 samples.

Results

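Trp53, the gene for the tumour suppressor p53, and 9 genes that p53 is known to activate were followed in RNA sequencing data of a mouse mammary tumour clone. The members were chosen by name, with earlier results of these data known. Trp53, Mdm2, Cdkn1a, Ccng1, Btg2, Plk2, Bax, Perp, Ei24 and Zmat3 each matched 1 of the 23479 gene entries in the table. The cells were clone 4T1-T, grown from a single cell of the mouse mammary carcinoma line 4T1 and kept in DMEM with 5% fetal bovine serum and 5% fetal calf serum. All 10 libraries came from that clone, and all carried an shRNA: shRenilla, which targets a luciferase that the cells do not make and served as the control; shSerpine2-1 or shSerpine2-2 against Serpine2; or shSlpi-1 or shSlpi-2 against Slpi. Serpine2 and Slpi both encode secreted inhibitors of serine proteases. Each of the 5 hairpin lines had 2 libraries, A and B, and the labels do not say whether these were separate cultures, so p-values measure the spread between libraries, which may be technical. No library came from cells without an shRNA, from cells with damaged DNA or from another clone.

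The p53 protein is a transcription factor that is normally kept scarce by Mdm2, a ubiquitin ligase whose gene p53 itself switches on. DNA damage or oncogenic stress stabilises p53, which then binds paired decamer motifs near its targets and raises genes for cell cycle arrest, DNA repair and cell death. 4T1 cells have been reported to lack p53, and many of its targets also have other activators. Reads per gene carry neither the sequence of the transcript nor the amount of protein.

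Promoter windows of the members are shown because the genes share p53 as a known regulator and did not share a direction in these libraries. Each window runs from 250 bases before to 50 bases after a transcript start in RefSeq, build GRCm38.p6, is written 5′ to 3′ on the gene's strand, and has matches to the p53 decamer consensus in capitals. The table held windows for 8 of the 10 members, and Perp and Zmat3 had no entry. The consensus is a palindrome, so a match on either strand is a match on both.

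Cdkn1a, chr17:29090729-29091028, plus strand: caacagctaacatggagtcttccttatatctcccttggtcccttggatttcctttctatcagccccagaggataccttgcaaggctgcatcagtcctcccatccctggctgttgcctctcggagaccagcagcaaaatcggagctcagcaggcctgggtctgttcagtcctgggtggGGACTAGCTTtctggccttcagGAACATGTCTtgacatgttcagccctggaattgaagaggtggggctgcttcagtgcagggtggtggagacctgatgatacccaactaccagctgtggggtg
Mdm2, chr10:117710709-117711008, minus strand: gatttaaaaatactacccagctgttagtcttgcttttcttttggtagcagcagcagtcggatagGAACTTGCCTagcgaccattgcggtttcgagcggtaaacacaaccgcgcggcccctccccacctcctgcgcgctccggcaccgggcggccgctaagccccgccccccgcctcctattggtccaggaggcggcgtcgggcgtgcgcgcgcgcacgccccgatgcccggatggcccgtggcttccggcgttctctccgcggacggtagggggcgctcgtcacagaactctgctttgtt
Ccng1, chr11:40755237-40755536, minus strand: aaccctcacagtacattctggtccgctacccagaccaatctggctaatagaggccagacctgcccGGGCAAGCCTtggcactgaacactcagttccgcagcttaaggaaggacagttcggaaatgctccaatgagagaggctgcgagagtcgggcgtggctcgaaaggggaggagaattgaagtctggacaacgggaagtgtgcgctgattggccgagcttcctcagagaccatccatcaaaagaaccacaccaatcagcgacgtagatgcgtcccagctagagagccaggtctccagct
Bax, chr7:45466849-45467148, minus strand: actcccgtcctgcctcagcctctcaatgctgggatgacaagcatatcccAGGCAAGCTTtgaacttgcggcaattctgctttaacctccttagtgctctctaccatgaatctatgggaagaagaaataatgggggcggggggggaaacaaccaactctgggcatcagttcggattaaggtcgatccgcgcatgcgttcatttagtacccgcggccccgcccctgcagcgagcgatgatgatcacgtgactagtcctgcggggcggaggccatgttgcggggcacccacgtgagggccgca

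Of the 32851 mouse windows of the same length, 2745 (8.36%) held at least 1 decamer, against 6 of the 9 windows that belong to members. A single decamer was present 201 bases before the start in Bax, 186 before it in Mdm2, 185 before it in Ccng1, 75 before it in Trp53 and 10 before it in Ei24. The Cdkn1a window held 2 decamers with 12 bases between them, and such a pair, with at most 13 bases between, was present in 24 of all windows (0.0731%). The windows of Btg2 and Plk2 and that of a second, downstream Cdkn1a start held no match. A match is a run of letters and no record of binding, and the window leaves out introns and more distant sequence.

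All 10 members are protein-coding genes. In GENCODE M21 on GRCm38, Trp53 at chr11:69580359-69591873 (plus strand) and its inhibitor Mdm2 at chr10:117688875-117710758 (minus strand) lie on different chromosomes. The arrest genes are annotated as Cdkn1a at chr17:29090976-29100727 (plus strand), Ccng1 at chr11:40748552-40755311 (minus strand), Btg2 at chr1:134075170-134079120 (minus strand) and Plk2 at chr13:110395046-110400844 (plus strand). The genes tied to cell death are Bax at chr7:45461697-45466898 (minus strand), Perp at chr10:18845020-18857073 (plus strand) and Ei24 at chr9:36779159-36797393 (minus strand), and Zmat3 at chr3:32334792-32366014 (minus strand) completes the set.

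The libraries held 15877431 to 24026620 reads on genes. A level below is a normalised read count, that is, reads scaled for library size, and 3 reads in a library correspond to 2.30 to 3.48 normalised reads. The shRenilla mean of Serpine2 was 3201 normalised reads, and its own hairpins left 134 (shSerpine2-1) and 501 (shSerpine2-2). The shRenilla mean of Slpi was 1251, and its hairpins left 146 (shSlpi-1) and 68 (shSlpi-2). Each gene was also lower in lines of the other: Serpine2 stood at 1336 with shSlpi-1 and 1642 with shSlpi-2, and Slpi at 370 with shSerpine2-1 and 1164 with shSerpine2-2, so contrasts between the knockdowns do not set 1 lowered gene against an unchanged one. The 2 shSlpi-2 libraries differed most from each other, with a chi-square of 9.66 per degree of freedom against 1.51 to 2.64 in the other lines, and had the highest share of ribosomal Rn45s reads, 6.88% and 6.91% against 0.881% to 1.96% elsewhere. All 5 epithelial markers were expressed, and none of the 4 endothelial markers averaged 10 normalised reads. Among leukocyte markers, the pan-leukocyte gene Ptprc averaged 3.67 and Cd3e 1.38 normalised reads, while the lysosomal gene Cd68 averaged 130 (88.9 to 146 per library). In bulk RNA, fewer cells of a type and less RNA per cell cannot be told apart.

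Trp53 RNA was plainly present in all libraries, and its level did not pass the test with either knockdown. The shRenilla libraries had 1292 and 1193 normalised reads, shSerpine2-1 had 1231 and 1173, shSerpine2-2 had 1207 and 1221, shSlpi-1 had 1372 and 1268, and shSlpi-2 had 1036 and 1170. Of the 8 knockdown libraries, 1 was above both control libraries, 3 were below both and the other 4 lay between them, so the groups overlapped. On the log2 scale, Trp53 differed from shRenilla by -0.04 ± 0.06 (SE) with the Serpine2 hairpins (95% interval -0.17 to 0.09, limma adjusted p = 0.686) and by -0.04 ± 0.06 with the Slpi hairpins (-0.17 to 0.09, adjusted p = 0.624). The sign of both differences turned when shRenilla A was left out (0.02 and 0.01), and that with the Slpi hairpins also turned without shSlpi-2 A (0.001) or without both shSlpi-2 libraries (0.09). A processed pseudogene, Trp53-ps, is annotated, so some reads could be shared between the copies.

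The 2 Slpi hairpin lines differed from each other in Trp53. The mean was 1320.2 ± 73.3 (SD, n = 2) normalised reads with shSlpi-1 and 1103.3 ± 94.9 (n = 2) with shSlpi-2, a log2 difference of 0.26 (limma adjusted p = 0.0120), and both shSlpi-1 libraries were above both shSlpi-2 libraries. The call was lost without shSlpi-1 A (0.20, adjusted p = 0.117) and without shSlpi-2 A (0.17, adjusted p = 0.0580).

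Per kilobase of exon, the members covered most of the range of expressed genes. Perp stood highest with a mean of 1065 normalised reads per kilobase over the 10 libraries, above 94.0% of 11563 expressed genes with a matched exon length, followed by Ccng1 with 734, Mdm2 with 484, Ei24 with 454, Plk2 with 328 and Trp53 itself with 301. Zmat3 had 238, Bax 195 and Cdkn1a 133 per kilobase. Btg2 stood lowest with 11.7, above 11.1% of those genes, on only 16 to 43 reads per library. In normalised reads, the highest and lowest of the 10 libraries were between 1.18-fold (Zmat3) and 2.69-fold (Btg2) apart.

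**Figure D1:**
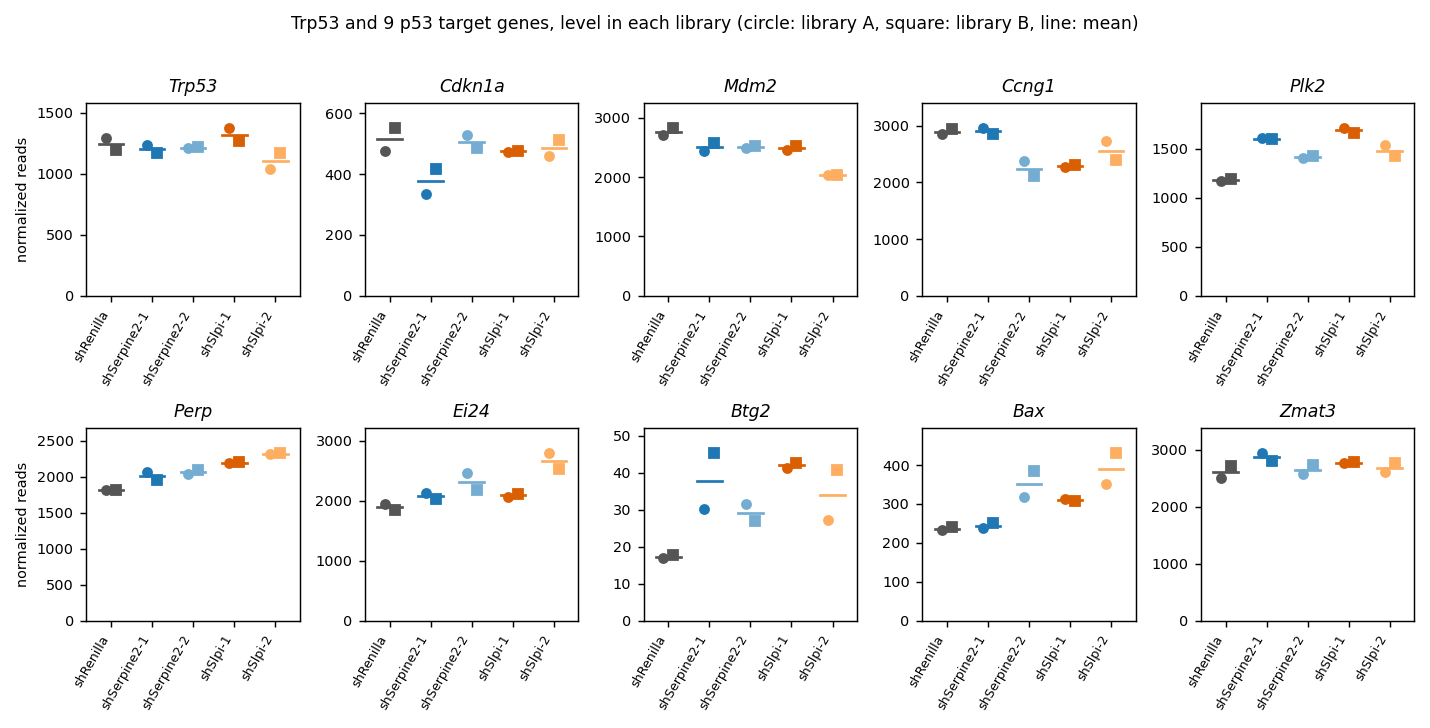
Normalised read counts of each of the 10 members in each of the 10 libraries, grouped by hairpin line, with a circle for library A, a square for library B and a line at the mean. Plk2, Perp, Ei24 and Btg2 lie above both shRenilla libraries in all 8 knockdown libraries, Mdm2 lies below them in all 8, and Trp53 overlaps the controls. How many of all genes separate in this way was not counted.

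The question for the targets was whether loss of Serpine2 or Slpi moved them, and whether they moved together. With the Serpine2 hairpins 7 of the 10 members passed the test, against 21.5% of the 12299 genes tested: 5 rose (Plk2, Perp, Ei24, Btg2, Bax; 10.7% of all genes rose) and 2 fell (Mdm2, Ccng1; 10.8% fell). With the Slpi hairpins 7 of 10 passed, against 34.8% of all genes, and they were the same 5 that rose (16.5% of all genes) and the same 2 that fell (18.3%). Both comparisons use the same 2 shRenilla libraries, so the shared direction is not independent. Where a member is said below to lie above or below both controls, the share of all genes doing so was not counted. The median size of the log2 change was 0.20 over the members and 0.14 over all genes with the Serpine2 hairpins, and 0.31 and 0.17 with the Slpi hairpins. As the members were chosen with earlier results of these data known, these comparisons with all genes are descriptive and do not test the set.

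With a library left out, more member calls were lost with the Serpine2 hairpins than with the Slpi hairpins. Calls over all genes also became fewer whichever library was left out of the Serpine2 comparison. With no filter on low values they were 7.34% of the genes then tested, so the loss was not confined to the members. With the Slpi hairpins calls over all genes became fewer in some omissions and more in others. Without shRenilla A, or without shRenilla B, Plk2 was the 1 member still called with the Serpine2 hairpins, and with no filter on low values only Plk2 and Perp were. The count was 2 without shSerpine2-1 A, 5 without shSerpine2-1 B, 4 without shSerpine2-2 A and 3 without shSerpine2-2 B. With the Slpi hairpins all 7 members kept their call whichever of the 6 libraries was left out, and also without both shSlpi-2 libraries. When each hairpin line was taken as 1 unit, which leaves the control with 1 unit, limma called 0 genes in either comparison.

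**Figure D2:**
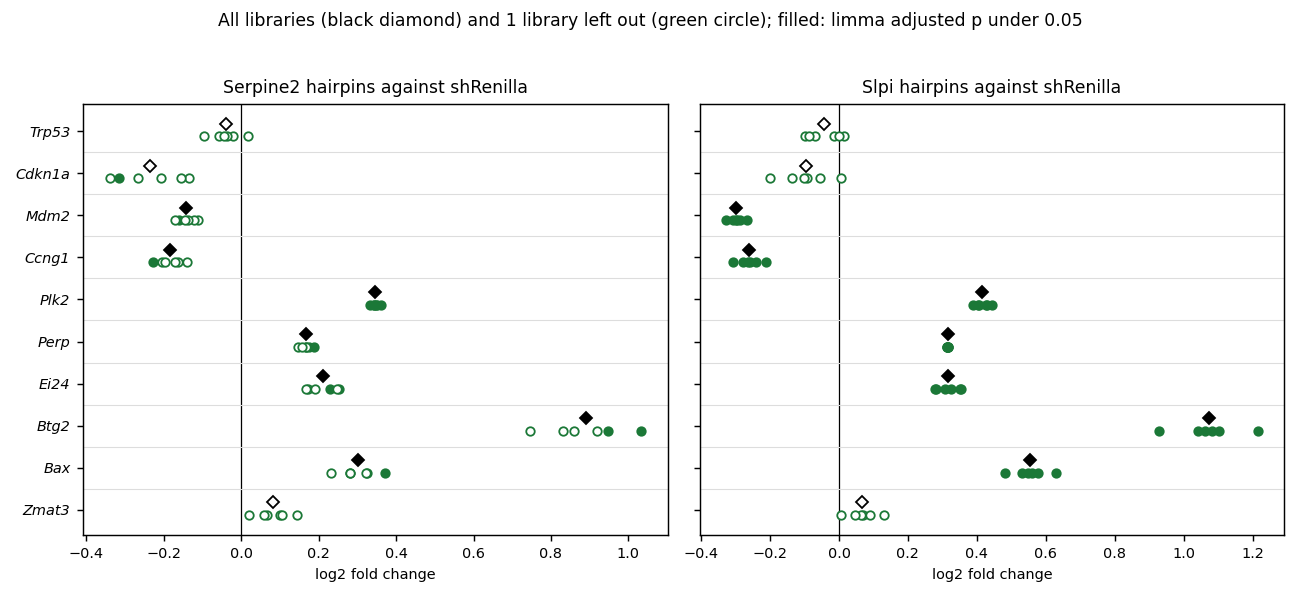
Log2 change of each member against shRenilla with the Serpine2 hairpins and with the Slpi hairpins, with all libraries and with each library left out in turn. Filled points passed an adjusted p of 0.05 over all genes, open points did not; the Slpi points of the 7 called members stay filled, and in the Serpine2 panel Plk2 is the member that stays filled throughout.

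Mdm2, which marks p53 for degradation and is itself a p53 target, fell in both knockdowns. Its level was 2712 and 2825 normalised reads in shRenilla, 2439 and 2575 with shSerpine2-1, 2497 and 2525 with shSerpine2-2, 2450 and 2519 with shSlpi-1, and 2039 and 2041 with shSlpi-2. All 8 knockdown libraries were below both controls, and the shSlpi-2 pair was lowest. Mdm2 fell by 0.14 ± 0.04 (SE) on the log2 scale with the Serpine2 hairpins (limma adjusted p = 0.0306) and by 0.30 ± 0.04 with the Slpi hairpins (adjusted p = 7.94e-05). Neither Serpine2 hairpin passed alone, with -0.143 for shSerpine2-1 (limma adjusted p = 0.08544) and -0.141 for shSerpine2-2 (adjusted p = 0.05055). With no filter on low values, the fall over both Serpine2 hairpins did not pass either (limma adjusted p = 0.05341). The difference between the knockdowns was itself called, at 0.16 (adjusted p = 0.00711), as was that between the Slpi lines, at 0.28 (adjusted p = 8.26e-04). With shSlpi-1 alone the change was -0.16 (adjusted p = 0.0447), and this call was lost with any 1 of its 4 libraries left out (adjusted p = 0.0830 to 0.267). The Serpine2 call held without shSerpine2-1 B and was lost in the other 5 of the 6 omissions (adjusted p up to 0.274).

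Among the genes for cell cycle arrest, Cdkn1a, the p21 inhibitor of cyclin-dependent kinases and the best known p53 target, did not rise with any hairpin. It had 477 and 551 normalised reads in shRenilla, 334 and 418 with shSerpine2-1, 528 and 486 with shSerpine2-2, 472 and 478 with shSlpi-1, and 458 and 512 with shSlpi-2. The shSerpine2-1 libraries were the lowest, and those of the other knockdown lines overlapped the controls or lay close to them. Cdkn1a fell with shSerpine2-1 by 0.46 ± 0.11 on the log2 scale (limma adjusted p = 0.0114), with 3 of 10 members called there against 10.5% of all genes. It did not pass with shSerpine2-2 (-0.02, adjusted p = 0.915), and the 2 Serpine2 lines differed by -0.44 (adjusted p = 0.0120), with 4 members called in that contrast against 14.7% of all genes. Without shRenilla B the fall with shSerpine2-1 was -0.35 (adjusted p = 0.192), without shSerpine2-1 A it was -0.29 (adjusted p = 0.187), and the contrast between the lines ranged from -0.60 to -0.28 with 1 of 4 omissions keeping the call. Over both Serpine2 hairpins the difference was -0.24 ± 0.09 (adjusted p = 0.0761, and 0.0280 without shSerpine2-1 B), and over both Slpi hairpins -0.10 ± 0.09 (adjusted p = 0.447). Of its exon length, 7.68% overlaps the annotated gene AC167363.2 on the opposite strand, and whether counting used strand is not given in the sources used here.

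Plk2, a polo-like kinase that acts around S phase entry and in centriole duplication, rose in every knockdown line. It had 1174 and 1195 normalised reads in shRenilla, 1611 and 1596 with shSerpine2-1, 1407 and 1423 with shSerpine2-2, 1710 and 1665 with shSlpi-1, and 1537 and 1426 with shSlpi-2. The lowest knockdown library was clear of the higher control, and replicate libraries lay close together. Plk2 rose by 0.35 ± 0.05 (SE) on the log2 scale with the Serpine2 hairpins (limma adjusted p = 1.63e-04) and by 0.42 ± 0.05 with the Slpi hairpins (adjusted p = 8.53e-06). By line, the changes were 0.44 with shSerpine2-1, 0.26 with shSerpine2-2, 0.51 with shSlpi-1 and 0.32 with shSlpi-2, all called, and all kept their call in each omission of 1 library. The first hairpin of each pair gave the larger rise, by 0.18 for Serpine2 (adjusted p = 0.0414) and 0.19 for Slpi (adjusted p = 0.0219). Those differences between lines were lost in 4 of 4 omissions (adjusted p = 0.153 to 0.206) and 3 of 4 omissions (adjusted p up to 0.119).

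Ccng1, the gene of cyclin G1, which recruits a phosphatase to Mdm2, fell in 3 of the 4 lines. The controls had 2856 and 2936 normalised reads and shSerpine2-1 a like 2954 and 2851, while shSerpine2-2 had 2377 and 2107, shSlpi-1 had 2279 and 2299, and shSlpi-2 had 2728 and 2390. The 6 libraries of those 3 lines were all below both controls. Ccng1 fell by 0.37 with shSerpine2-2 (limma adjusted p = 7.35e-04), where 5 of 10 members were called against 27.5% of all genes. It fell by 0.34 with shSlpi-1 (adjusted p = 0.00231), where 6 members were called against 17.5%, and by 0.18 with shSlpi-2 (adjusted p = 0.0361), where 7 were called against 42.4%. The difference with shSerpine2-1 was 0.00 (adjusted p = 0.985), and the 2 Serpine2 lines differed by 0.38 (adjusted p = 0.00159, lost without shSerpine2-2 B at 0.29, adjusted p = 0.0552). Over both hairpins Ccng1 fell by 0.18 ± 0.06 for Serpine2 (adjusted p = 0.0303; called in 1 of 6 omissions, without shSerpine2-2 A) and by 0.26 ± 0.06 for Slpi (adjusted p = 0.00219). The shSlpi-2 call was lost without shRenilla A (-0.20, adjusted p = 0.0911), shRenilla B (-0.16, adjusted p = 0.176) or shSlpi-2 B (-0.09, adjusted p = 0.263).

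Btg2, an antiproliferative protein that binds the mRNA deadenylation machinery, had the largest fold changes on the fewest reads. It had 16.9 and 17.6 normalised reads in shRenilla, 30.1 and 45.3 with shSerpine2-1, 31.6 and 26.8 with shSerpine2-2, 41.3 and 42.7 with shSlpi-1, and 27.1 and 40.7 with shSlpi-2. All 8 knockdown libraries were above both controls, although libraries of shSerpine2-1 and of shSlpi-2 were far apart. Btg2 rose by 0.89 ± 0.24 on the log2 scale with the Serpine2 hairpins (limma adjusted p = 0.0152) and by 1.07 ± 0.24 with the Slpi hairpins (adjusted p = 0.00259). The first held in 2 of 6 omissions, those of shSerpine2-1 A and shSerpine2-2 B (adjusted p up to 0.104), the second in 6 of 6. By line, the change was 1.06 with shSerpine2-1 (adjusted p = 0.0236), 0.72 with shSerpine2-2 (adjusted p = 0.0642), 1.24 with shSlpi-1 (adjusted p = 0.00599) and 0.91 with shSlpi-2 (adjusted p = 0.0149). With 1 library left out, the call held in 1 of 4 cases for shSerpine2-1, 3 of 4 for shSlpi-1 and 1 of 4 for shSlpi-2.

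**Figure D3:**
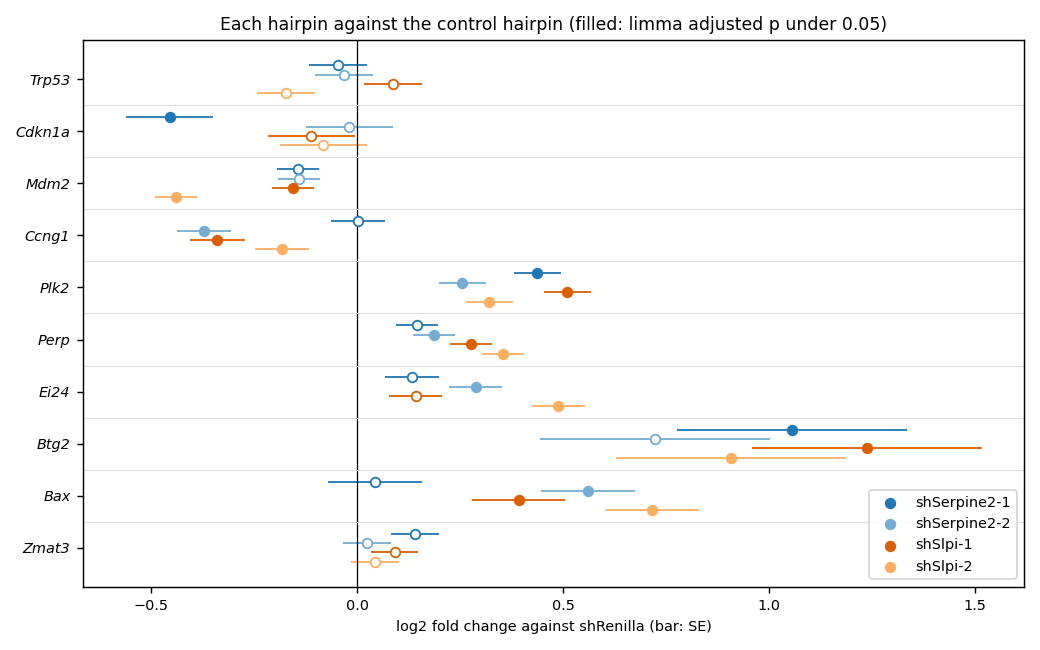
Log2 change against shRenilla of each member with each of the 4 hairpins, with bars for the standard error from limma and filled points for an adjusted p under 0.05. Plk2 lies above 0 with all 4 hairpins, Ccng1 and Bax stay at 0.00 and 0.04 with shSerpine2-1, and Cdkn1a departs from 0 with shSerpine2-1.

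Among the genes tied to cell death, Bax, which forms pores in the outer mitochondrial membrane, rose in 3 lines. It had 233 and 240 normalised reads in shRenilla, 237 and 251 with shSerpine2-1, 317 and 384 with shSerpine2-2, 314 and 308 with shSlpi-1, and 351 and 431 with shSlpi-2. The shSerpine2-1 libraries overlapped the controls, and the 6 libraries of the other knockdown lines were all above them. Bax rose by 0.56 with shSerpine2-2 (limma adjusted p = 0.00195; 0.42 and 0.0536 without shSerpine2-2 B), by 0.39 with shSlpi-1 (adjusted p = 0.0253; lost in 4 of 4 omissions, adjusted p = 0.105 to 0.132) and by 0.72 with shSlpi-2 (adjusted p = 1.05e-04). With shSerpine2-1 the difference was 0.04 (adjusted p = 0.859), and the 2 Serpine2 lines differed by -0.52 (adjusted p = 0.00708), a call lost without shSerpine2-1 A (-0.48, adjusted p = 0.0836) or shSerpine2-2 B (-0.38, adjusted p = 0.138).

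Over both hairpins Bax rose by 0.30 ± 0.10 for Serpine2 (limma adjusted p = 0.0388; kept in 1 of 6 omissions, that of shSerpine2-2 A, and lost with libraries scaled to equal totals, adjusted p = 0.0541, or with voom weights, adjusted p = 0.0726) and by 0.55 ± 0.10 for Slpi (adjusted p = 4.06e-04; kept in 6 of 6). The 2 knockdowns differed by -0.25 (adjusted p = 0.0410), with 3 members called in that contrast (Mdm2, Perp and Bax) against 17.5% of all genes, and the Bax call held in 2 of 8 omissions, those of shSerpine2-2 B and shSlpi-2 A (adjusted p up to 0.212 in the others). The Slpi lines differed by -0.32 (adjusted p = 0.0476), a call that held in 1 of 4 omissions, that of shSlpi-2 A, with 5 members called against 26.1% of all genes. Of the exon length of Bax, 12.2% overlaps the annotated gene Gm45808 on the same strand.

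Perp, a membrane protein of desmosomes that p53 and its relative p63 both activate, rose with both knockdowns and varied little between libraries. It had 1814 and 1813 normalised reads in shRenilla, 2064 and 1950 with shSerpine2-1, 2040 and 2089 with shSerpine2-2, 2188 and 2203 with shSlpi-1, and 2309 and 2326 with shSlpi-2. All 8 knockdown libraries were above the controls. By line, the log2 change was 0.15 with shSerpine2-1 (not called), 0.19 with shSerpine2-2 (limma adjusted p = 0.0130, lost in 4 of 4 omissions, with adjusted p as high as 0.111). The Slpi lines gave 0.28 (shSlpi-1) and 0.35 (shSlpi-2), both called and kept in 4 of 4 omissions. Perp rose by 0.17 ± 0.05 on the log2 scale with the Serpine2 hairpins (limma adjusted p = 0.0141) and by 0.32 ± 0.05 with the Slpi hairpins (adjusted p = 5.03e-05), and the knockdowns differed by -0.15 (adjusted p = 0.010). The Serpine2 call held without shSerpine2-1 B or shSerpine2-2 A and was lost in the other 4 omissions (adjusted p up to 0.116). The call between knockdowns was lost without shSerpine2-1 B (-0.13, adjusted p = 0.0654) or shSerpine2-2 A (-0.14, adjusted p = 0.0594).

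The summed epithelial markers moved in the same direction as Perp. The summed level of the 5 markers Krt8, Krt18, Krt7, Epcam and Cdh1 was 21331 normalised reads in shRenilla, 25175 with shSerpine2-1, 26338 with shSerpine2-2, 26860 with shSlpi-1 and 30548 with shSlpi-2, which is the order of the Perp means. Cdh1, the highest of the 5, did not follow that order, with 11971 for shSerpine2-1 and 11146 for shSerpine2-2. With the Serpine2 hairpins 4 of the 5 rose, against 10.7% of all genes, and with the Slpi hairpins 5 of 5, against 16.5%. Krt18 did not pass with the Serpine2 hairpins, and with shSerpine2-1 its log2 difference was -0.06 (limma adjusted p = 0.536). The 4 fibroblast markers summed to 888 in shRenilla and 506 with shSlpi-2, nearly all of it Pdgfra, while Thy1, Dcn and Lum each averaged under 2 normalised reads. Their part in the changes of Perp was not tested.

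Ei24, an endoplasmic reticulum protein first described as induced by etoposide, rose with both knockdowns. It had 1945 and 1847 normalised reads in shRenilla, 2133 and 2024 with shSerpine2-1, 2456 and 2180 with shSerpine2-2, 2068 and 2116 with shSlpi-1, and 2794 and 2534 with shSlpi-2. All 8 knockdown libraries were above the controls, the shSlpi-2 pair furthest. Ei24 rose by 0.21 ± 0.06 with the Serpine2 hairpins (limma adjusted p = 0.0142) and by 0.32 ± 0.06 with the Slpi hairpins (adjusted p = 3.94e-04). The rise was called with shSerpine2-2 (0.29, adjusted p = 0.00389) and shSlpi-2 (0.49, adjusted p = 1.78e-05), with values of 0.13 and 0.14 in the other lines, and the Slpi lines differed by -0.35 (adjusted p = 0.00112). The Serpine2 call held in 2 of 6 omissions, those of shSerpine2-1 B and shSerpine2-2 B (adjusted p up to 0.195 in the others), and that of shSerpine2-2 was lost without shRenilla B (0.25, adjusted p = 0.0626) or shSerpine2-2 A (0.20, adjusted p = 0.0873). Of its exon length, 6.66% overlaps the annotated gene Gm26787 on the opposite strand.

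Zmat3, a zinc finger protein that binds RNA and acts in splicing, did not pass the test in either knockdown, and its libraries spanned the smallest range among the members. It had 2498 and 2723 normalised reads in shRenilla and 2568 to 2944 in the 8 knockdown libraries, of which 6 were above both controls. The change was 0.08 ± 0.05 on the log2 scale with the Serpine2 hairpins (95% interval -0.02 to 0.19, limma adjusted p = 0.255) and 0.07 ± 0.05 with the Slpi hairpins (-0.04 to 0.17, adjusted p = 0.322).

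Other genes that p53 is known to activate were counted as a group of 36, of which 30 had a mean of at least 10 normalised reads and were tested. The 6 under that level were Bbc3 and Pmaip1, which encode the death inducers PUMA and NOXA, Eda2r, Rprm, Gdf15 and the noncoding RNA Trp53cor1 (listed as Gm16197). With the Serpine2 hairpins 4 rose, 2 fell and 24 did not pass, with a median log2 change of -0.02 over the tested genes against 0.00 over all genes. With the Slpi hairpins 6 rose, 3 fell and 21 did not pass, with a median of 0.07 against -0.01. Both counts are near those that 21.5% and 34.8% of all genes would give.

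Serpinb5, which encodes the epithelial serpin maspin, rose by 0.58 ± 0.11 with the Serpine2 hairpins (limma adjusted p = 0.00119; lost without shRenilla B, 0.43, adjusted p = 0.0589) and by 0.92 ± 0.11 with the Slpi hairpins (adjusted p = 6.09e-06). Rev3l, the catalytic subunit of the translesion polymerase zeta, fell by 0.30 ± 0.04 and by 0.27 ± 0.04 (adjusted p = 1.20e-04 and 9.14e-05), and both calls held in 6 of 6 omissions. Trp53inp1, a stress protein that promotes p53 phosphorylation, fell by 0.57 ± 0.17 with the Serpine2 hairpins (adjusted p = 0.0241; kept in 2 of 6 omissions, up to 0.218), and the death receptor gene Tnfrsf10b rose by 0.16 ± 0.05 (adjusted p = 0.0267; kept in 1 of 6, up to 0.336). With the Slpi hairpins the glutaminase Gls2 rose by 0.51 ± 0.12 (adjusted p = 0.00269) and the ephrin receptor Epha2 by 0.18 ± 0.04 (adjusted p = 0.00403). Both were lost without shRenilla B (0.38 and 0.13, adjusted p = 0.0753 and 0.114). The Slpi lines differed in Epha2 by -0.35 (adjusted p = 1.24e-04), with 0.01 for shSlpi-1 (adjusted p = 0.959) and 0.36 for shSlpi-2. The Serpine2 lines differed in Rev3l by 0.37 (adjusted p = 8.95e-05), with -0.11 for shSerpine2-1 (adjusted p = 0.150) and -0.48 for shSerpine2-2. The count of called genes with the Serpine2 hairpins was 5 without shRenilla A, 1 without shRenilla B, and 2 or 3 without any 1 Serpine2 library. With the Slpi hairpins it was 5 without shRenilla A, 3 without shRenilla B and 5 without shSlpi-1 A.

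Among regulators of p53, the genes called over both hairpins of a gene were all lower. Of 24 listed, 21 were tested. None rose with the Serpine2 hairpins and 4 fell (Mdm4, Rfwd2, Trp53bp1 and Chek1), while with the Slpi hairpins 0 rose, 10 fell and 11 did not pass. Of all genes 10.8% and 18.3% fell in these contrasts, and 21.5% and 34.8% were called, so the Serpine2 count is near the background. The group's median log2 change was 0.01 and -0.12, against 0.00 and -0.01 over all genes. By line, 0 regulators were called with shSerpine2-1, 5 with shSerpine2-2 (all lower) and 5 with shSlpi-1 (all lower), of the 21 tested. Of all genes, 10.5%, 27.5%, 17.5% and 42.4% were called with shSerpine2-1, shSerpine2-2, shSlpi-1 and shSlpi-2. The shares of all genes that fell in each line are not given here. With shSlpi-2, 10 fell and Ppp1r13l, an inhibitor of p53, rose by 0.34 (limma adjusted p = 0.0240; named after its value was seen). The 4 Serpine2 calls were all lost without shRenilla A or without shRenilla B, and 2 were left without any 1 Serpine2 library. The 10 Slpi calls became 4 without shRenilla A, and 8 without both shSlpi-2 libraries.

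Mdm4, the partner of Mdm2 that blocks p53 activity, fell by 0.27 ± 0.07 with the Serpine2 hairpins (limma adjusted p = 0.0108; lost without shRenilla A or B, adjusted p = 0.0988 and 0.0997) and by 0.18 with the Slpi hairpins (adjusted p = 0.0486). The Slpi lines differed in Mdm4 by 0.39 (adjusted p = 0.00176), with 0.02 for shSlpi-1 (adjusted p = 0.920) and -0.38 for shSlpi-2. Rfwd2, the ubiquitin ligase also called Cop1, fell by 0.19 ± 0.06 with the Serpine2 hairpins (adjusted p = 0.0207; kept in 2 of 6 omissions, up to 0.137). The p53-binding protein genes Trp53bp1 and Trp53bp2 fell by 0.24 ± 0.05 and 0.28 ± 0.05 with the Slpi hairpins (adjusted p = 0.00149 and 1.64e-04), as did the kinase genes Hipk2 by 0.34 ± 0.07 and Chek1 by 0.24 ± 0.05 (adjusted p = 7.85e-04 and 0.00116), and these 4 held in 6 of 6 omissions. With the Serpine2 hairpins Trp53bp1 fell by 0.17 ± 0.05 and Chek1 by 0.15 ± 0.05 (adjusted p = 0.0214 and 0.0442), kept in 2 of 6 and 0 of 6 omissions. The other p53 family members were near background: Trp63 averaged 3.20 and Trp73 0.891 normalised reads. Cdkn2a, whose alternative product ARF shields p53 from Mdm2, had 0 reads in all 10 libraries, which allows at most 3.48 normalised reads in a library by counting error alone.

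**Figure D4:**
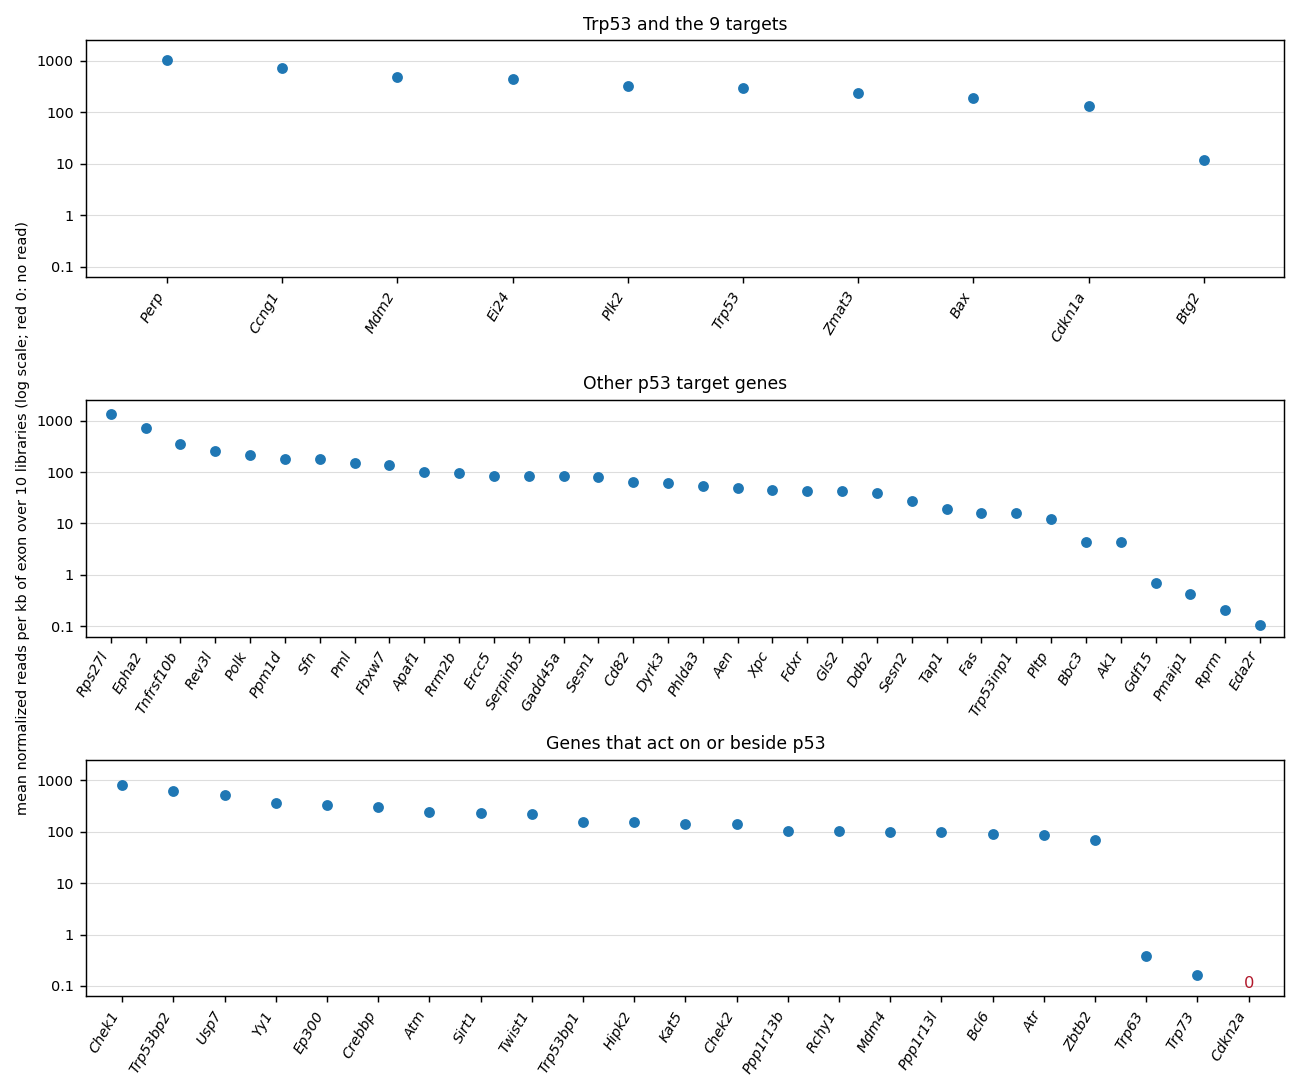
Mean normalised reads per kilobase of exon over the 10 libraries, on a log axis, for the members, the other p53 targets and the p53 regulators that had a matched exon length, 1 point per gene. Members run from 1065 (Perp) to 11.7 (Btg2), most regulators lie in that range, and Trp63, Trp73 and Cdkn2a (0 reads, marked in red) stand far below.

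The relatives of the members by family or role were called in both directions. Of 23 listed genes 20 were tested, of which 3 rose and 6 fell with the Serpine2 hairpins and 4 rose and 9 fell with the Slpi hairpins, against 21.5% and 34.8% of all genes called in either direction. Ccng2, the cyclin G paralogue of Ccng1, fell by 0.29 ± 0.07 and 0.53 ± 0.07 (limma adjusted p = 0.0101 and 5.03e-05). Both cyclin G genes were thus lower over both hairpins of a gene. With shSerpine2-1 alone neither passed, with 0.003 for Ccng1 and -0.180 for Ccng2 (limma adjusted p = 0.9853 and 0.2055). The kinase inhibitor gene Cdkn2c fell by 0.21 ± 0.05 and 0.58 ± 0.05 (adjusted p = 0.00814 and 4.31e-07). Btg1, the paralogue of Btg2, fell by 0.16 ± 0.04 with the Serpine2 hairpins (adjusted p = 0.0116) while Btg2 rose, and Mcl1, a survival protein of the Bcl2 family to which Bax belongs, fell by 0.20 ± 0.05 (adjusted p = 0.00875). With the Slpi hairpins Mcl1 fell as well (-0.18, adjusted p = 0.00929) and Btg1 did not pass (0.01, adjusted p = 0.897). Zmat1 fell by 1.21 ± 0.24 and Zmat2 rose by 0.40 ± 0.06 with the Slpi hairpins (adjusted p = 9.16e-04 and 1.24e-04). With the Serpine2 hairpins Zmat1 was also called (-0.85, adjusted p = 0.0176) and Zmat2 did not pass (0.14, adjusted p = 0.111). The Serpine2 calls of Ccng2, Cdkn2c, Mcl1 and Btg1 were lost without shRenilla B (adjusted p = 0.202, 0.171, 0.201 and 0.112), and that of Btg1 also without shRenilla A (0.0685). In all, 3 of these 20 genes were called with the Serpine2 hairpins without shRenilla A, 0 without shRenilla B and 5 without shSerpine2-1 B, and 8 and 6 with the Slpi hairpins without shRenilla A and B.

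The named genes whose levels followed Trp53 and Cdkn1a most closely over the 10 libraries differed between the 2. Gene models without a proper name and entries written as dates were passed over, whatever their correlation. Among the 9929 remaining genes with a mean of at least 50 normalised reads, Pearson's r of log2 levels with Trp53 was 0.945 for Slc9a8, 0.939 for Proser2 and 0.910 for Itgb1bp1. With Cdkn1a it was 0.940 for Tbc1d17, 0.893 for Txnl1 and 0.884 for Gchfr. These are the top values of a search over 10 libraries that share a clone and come in pairs, and are given as a description.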

How the data were processed

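Total RNA of 10 libraries was sequenced from 100 ng of RNA amplified with the NuGEN Ovation kit, with 76 bp reads, per the labels' protocols. The deposited table holds log2 values per gene. The authors used Bowtie2, HTSeq and DESeq with build mm10, per the submitters' processing notes, with versions, settings and strand not given in the sources used here. The deposited values share a floor of 6.73 and have the form of the variance-stabilised log2 scale of the authors' package DESeq, and inverting it gave normalised read counts and whole reads (100% within 0.01 reads). The inversion rests on the values, since no label states it, and limma was run on the inverted values in place of the deposited ones.

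Genes with a mean of at least 10 normalised reads (12299) were fitted with limma 3.58.1 in R 4.3.3 on log2(normalised reads + 1), which understates changes of low genes, with a mean for each of the 5 hairpin lines. P-values were adjusted by Benjamini-Hochberg over all 12299 genes, and an adjusted p under 0.05 is a call. The contrasts were both hairpins of a gene against shRenilla, each hairpin against shRenilla, Serpine2 against Slpi, and hairpin against hairpin. The procedure was tested on simulated data. Alternatives were a pseudocount of 8, no filter, the deposited values, equal library totals, a replicate block, voom weights, the compared libraries alone, hairpin lines as units, no shSlpi-2, and each library left out in turn. With a library left out, its line has 1 library, which is assumed to vary like the other lines.

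The members and lists were chosen with earlier results of these data known. All 10 members are named, and of each other list up to 4 called genes with the smallest p in each both-hairpin contrast, besides Trp63, Trp73, Mdm4 and Cdkn2a. Genes and exon lengths are from GENCODE M21, and promoter windows from RefSeq.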

Additional observations from a re-analysis of the deposited data

Results flagged for a closer look

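In 12 cases the effect of a hairpin or a knockdown on a member differed from that of another by limma's test of the difference itself, on the log2 scale. Of all genes, 17.5% were called between the knockdowns, 14.7% between the Serpine2 lines and 26.1% between the Slpi lines. Between the Serpine2 and the Slpi hairpins, Mdm2 differed by 0.16, Perp by -0.15 and Bax by -0.25. Between shSerpine2-1 and shSerpine2-2, which target the same gene, Cdkn1a differed by -0.44, Ccng1 by 0.38, Plk2 by 0.18 and Bax by -0.52. Between shSlpi-1 and shSlpi-2, Trp53 differed by 0.26, Mdm2 by 0.28, Plk2 by 0.19, Ei24 by -0.35 and Bax by -0.32. The last contrast includes the shSlpi-2 libraries, whose A and B differed most. Ei24 and Mdm2 between the Slpi lines were the only cases that kept their calls whichever library was left out. Every other call in this list was lost with some library left out.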

How the results depend on the processing

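The limits lie in the number of units: each gene was targeted by 2 hairpin lines of 1 clone, and each line had 2 libraries. The values counted next cover every member in the both-hairpin contrasts. In the other contrasts they cover only members called with all libraries, so calls gained there are left out of the count. Of 665 values of members under an alternative, 536 kept direction and side of the threshold, 122 lost the call, 2 gained it and 5 changed sign. With all libraries, 7 members were called with the Serpine2 hairpins, 2 with no filter on low values, 0 with hairpin lines as units and 1 to 5 with a library left out. The count was 6 with equal library totals or voom weights, both without Bax, and 8 with the compared libraries alone, with Cdkn1a added. For the Slpi hairpins the count was 7, and 0 with hairpin lines as units. For shSerpine2-1 the count of 3 became 1 with no filter, 7 with the compared libraries alone and 1 to 2 with a library left out. Leaving out a library gave 3 to 4 for shSerpine2-2 (5 with all), 3 to 4 for shSlpi-1 (6 with all) and 0 to 4 for Serpine2 against Slpi hairpins (3 with all). Between the Serpine2 lines the count of 4 became 2 with no filter and 0 to 3 with a library left out, and between the Slpi lines 5 became 2 with the compared libraries alone and 2 to 4 with a library left out. For the contrasts other than the both-hairpin ones, the share of all genes called under each alternative is not given here. Those counts therefore do not show whether the members moved more than all genes did. The cause of the shifts was not tested.

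The log2 change of Trp53 ranged from -0.097 to 0.017 with the Serpine2 hairpins and from -0.100 to 0.014 with the Slpi hairpins when 1 library was left out, with 0.001 without shSlpi-2 A and 0.087 without both shSlpi-2 libraries. That of Cdkn1a with the Slpi hairpins ranged from -0.200 to 0.007. Over all genes, 2643 calls with the Serpine2 hairpins became 1632 with no filter, 4176 with the compared libraries alone and 766 to 1952 with a library left out, and 4281 with the Slpi hairpins became 2401 to 5135. Equal library totals moved the median of all genes by at most 0.10. The labels do not say what the letters A and B stand for. Deviations of same-lettered libraries from their line means correlated at -0.073 to 0.072 over 10 pairs, so no strong effect shared by a letter was seen. A replicate block by letter left 7 members called in each both-hairpin contrast, with 2594 and 4256 genes called in all. The other lists were recomputed under the same alternatives, a choice made after the data were seen. With no filter, 2 other targets, 0 regulators and 5 related genes were called with the Serpine2 hairpins, in place of 6, 4 and 9, and with hairpin lines as units 0 of each list in either contrast.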

Other observations

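The absence of Cdkn2a reads extended to a neighbouring gene. Cdkn2a (chromosome 4, 89274471 to 89294653, minus strand, GRCm38), which encodes p16 and the p53 activator ARF, and Cdkn2b (89306299 to 89311039, minus strand), which encodes p15, both had 0 reads in all 10 libraries. Mtap, a gene of methionine salvage on one side of the pair (89137122 to 89181081), had 20393 to 27592 normalised reads per library, and Klhl9 (88718292 to 88722465), further out on that side, had 4016 to 5325. Dmrta1, on the other side, had 0.766 to 5.68 normalised reads and 29 reads in all libraries together. These neighbours were chosen after the values of Cdkn2a and Cdkn2b were seen, and read counts do not tell an absent gene from a silent one.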
